A study of Mus musculus with 34 samples.

Results

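Lipid-associated macrophage genes were followed in visceral fat of mice, in its stromal vascular fraction (SVF), as 8 of the 32098 genes in each of the deposited expression tables. They were chosen by name, with earlier results of these data known: Trem2, Gpnmb, Cd9, Spp1, Lgals3, Fabp5, Plin2 and Cd36. All 8 were present and passed the filter on low values in both tables. The mice were C57BL/6J males with no engineered allele, given either a high fat diet (HFD) with 60% of kcal from fat or a control diet (CHOW) from 6 weeks of age, and fasted for 6 hours before harvest. After 8 weeks on diet (14 weeks of age) there were 4 CHOW and 6 HFD libraries, after 20 weeks (26 weeks of age) 5 and 6, and after 34 weeks (40 weeks of age) 7 and 6. The SVF was the pelleted, non-floating cells of collagenase-digested visceral white adipose tissue, treated with an erythrocyte lysing buffer. More than 1 control diet formula was used across the study and the labels do not say which library had which. All mice started the diet at the same age, so time on diet and age cannot be told apart.

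Lipid-associated macrophages are known as cells that gather around dying adipocytes in obese fat, take up lipid and degrade it in lysosomes. TREM2 is a surface receptor for lipids and lipoproteins that signals through the adaptor TYROBP, and it is known to be needed for this state in mice. The other genes cover lipid entry (Cd36), intracellular fatty acid transport (Fabp5), the coat of the lipid droplet (Plin2), the lysosome and cell surface (Gpnmb, Cd9) and secreted or sugar-binding proteins (Spp1, which encodes osteopontin, and Lgals3, which encodes galectin-3). Several are not restricted to macrophages: Cd36 is also abundant in endothelial cells and adipocytes, and Plin2 in many cells that store lipid.

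In GRCm38 (GENCODE M21) the 8 protein-coding genes lie at chr17:48346401-48354147 (Trem2), chr6:49036546-49070929 (Gpnmb), chr6:125460266-125494791 (Cd9), chr5:104435118-104441050 (Spp1), chr14:47367751-47386160 (Lgals3), chr3:10012548-10016607 (Fabp5), chr4:86648386-86670060 (Plin2) and chr5:17781690-17888801 (Cd36). RefSeq promoter windows (GRCm38.p6, 250 bases before to 50 after the start of transcription) were held for 7 of the 8 genes, with 2 windows for Spp1. The stretches before the start are shown for the 3 genes with the largest diet differences at 20 weeks and for Plin2, 5′ to 3′ on the gene's strand, with the letters of the searched motifs in capitals.

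Trem2, chr17:48346151-48346400, strand +: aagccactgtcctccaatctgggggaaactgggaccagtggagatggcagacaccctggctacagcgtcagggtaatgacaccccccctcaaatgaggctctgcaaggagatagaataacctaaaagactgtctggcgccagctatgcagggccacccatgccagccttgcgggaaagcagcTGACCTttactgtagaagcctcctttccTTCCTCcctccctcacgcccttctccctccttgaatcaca

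Gpnmb, chr6:49036268-49036517, strand +: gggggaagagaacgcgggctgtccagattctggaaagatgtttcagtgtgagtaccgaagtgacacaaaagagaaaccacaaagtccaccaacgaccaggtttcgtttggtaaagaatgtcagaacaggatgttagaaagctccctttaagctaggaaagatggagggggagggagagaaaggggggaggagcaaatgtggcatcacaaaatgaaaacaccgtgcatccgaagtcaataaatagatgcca

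Spp1, chr5:104434861-104435110, strand +: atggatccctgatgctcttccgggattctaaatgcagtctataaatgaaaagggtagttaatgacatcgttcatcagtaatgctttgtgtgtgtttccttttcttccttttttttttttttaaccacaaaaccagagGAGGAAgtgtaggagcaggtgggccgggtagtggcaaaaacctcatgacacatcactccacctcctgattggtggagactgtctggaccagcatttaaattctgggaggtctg

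Plin2, chr4:86670060-86670309, strand -: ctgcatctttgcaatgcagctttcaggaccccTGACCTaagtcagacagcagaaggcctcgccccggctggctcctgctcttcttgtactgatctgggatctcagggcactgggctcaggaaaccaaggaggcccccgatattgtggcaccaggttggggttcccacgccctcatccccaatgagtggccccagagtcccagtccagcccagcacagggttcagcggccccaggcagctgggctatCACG

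Motifs were searched on both strands. The nuclear receptor motif AGGTCA was in 3 of the 8 windows (Trem2, Plin2 and Cd36), against 16.3% of all 32851 windows in the table, and its direct repeat spaced by 1 base was in none of the 8, against 0.0396% of all. The E-box CACGTG, a motif that factors of the MiT family bind, spanned the start of Plin2 and was in 7.15% of all windows. GAGGAA, the core of PU.1 sites, was in the windows of Trem2 and Spp1 and in 28.3% of all. The AP-1 motif TGACTCA or TGAGTCA was in the window of Gpnmb, 8 bases after the start and so outside the stretch shown, and in 5.2% of all. These matches are descriptions of letters and no binding was measured.

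Values are TPM, transcript shares that are corrected for length and sum to 1000000 in each library, so that levels may be set side by side between genes, while the read depth behind them is unknown. The libraries held abundant macrophage RNA: the summed TPM of 15 general macrophage genes ran from 5954 to 18590 at 8 and 20 weeks and from 5574 to 21870 at 34 weeks. Some libraries stood apart. The HFD 8 week replicate 3 held 123060 TPM of seminal vesicle genes, the HFD 20 week replicate 5 held 12422 TPM of sperm genes, and the CHOW 34 week replicates 5, 6 and 7 held 12141, 56325 and 16911 TPM of adipocyte genes, against at most 1416 TPM in the other 34 week libraries. Erythroid genes were abundant as well. Their summed TPM ran from 33175 to 267887 on HFD and from 35252 to 90466 on CHOW at 8 weeks. At 20 weeks it ran from 12622 to 30448 on HFD and from 27334 to 130027 on CHOW. The tables for 8 and 20 weeks and for 34 weeks were made separately, and nothing was tested between them. No source says that each library came from a separate mouse, so the p-values measure the spread between these libraries. In a bulk fraction, fewer cells of a type and less RNA per cell cannot be told apart.

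The diet difference was clearest after 20 weeks. Of the 8 genes, 7 were upregulated in response to HFD by limma on log2(TPM + 1) at a Benjamini-Hochberg adjusted p under 0.05, where 14.3% of the 16808 genes tested were called in either direction and 9.32% were called higher (1566 genes higher and 839 lower, or 1648 and 1854 after quantile normalization, where 8 of the 8 and 20.8% of all genes were called). In 7 of the 8, every HFD library lay above every CHOW library, which held for 5.5% of the genes tested. The median log2 fold change of the 8 was 1.72, beside 0.08 for all genes tested. As the 8 were chosen with earlier results known, their count is not independent evidence of a direction. Gpnmb, Trem2 and Spp1 had the widest differences, and Cd36 was the gene not called.

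**Figure D1:**
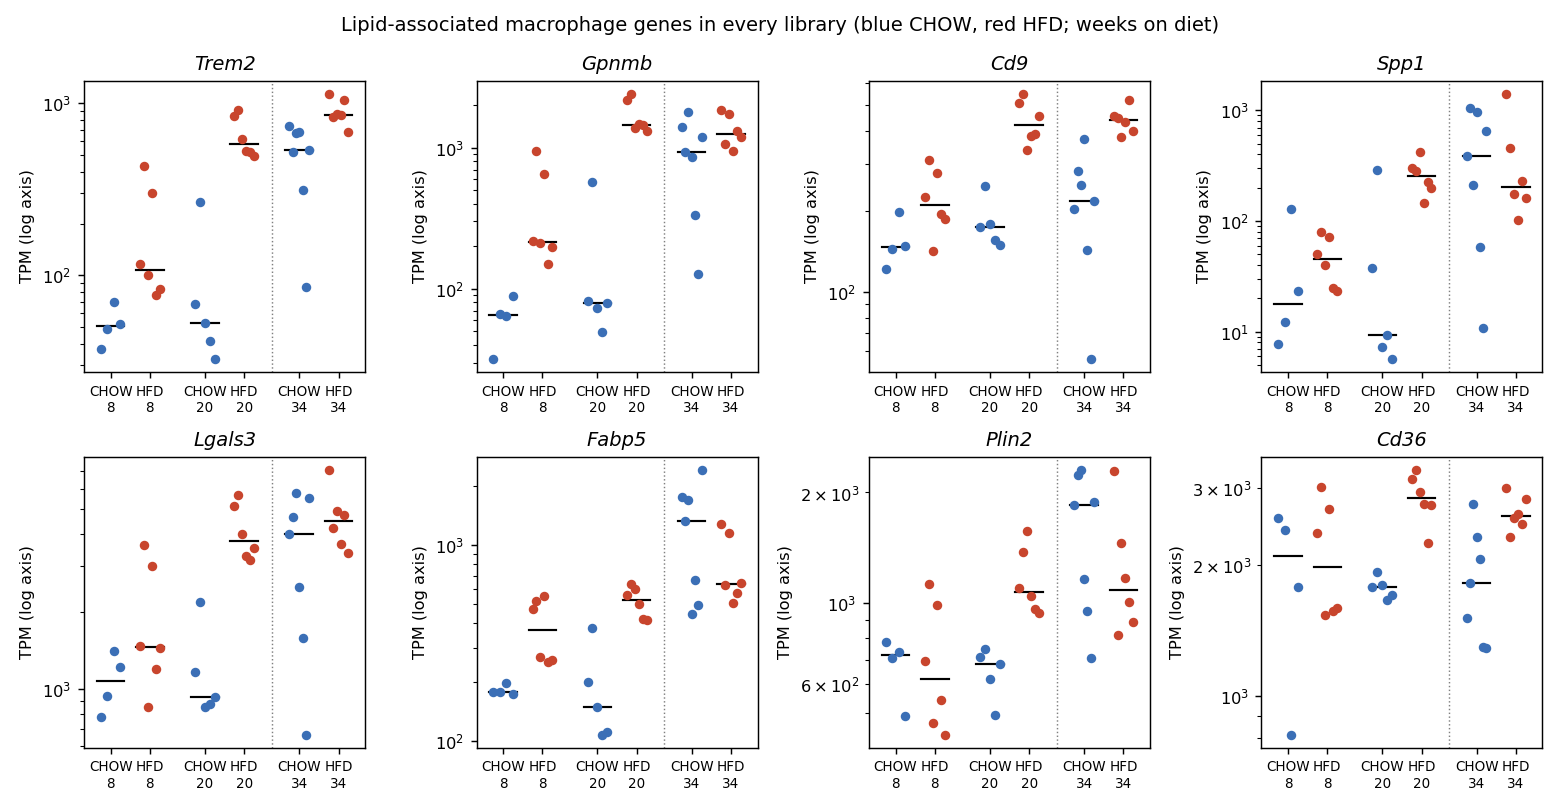
TPM of the 8 genes (log axis) in each of the 34 libraries, by diet and weeks on diet, with blue points for CHOW, red points for HFD and a bar at the median; the dotted line separates the tables, which were made separately. At 20 weeks the 6 HFD libraries lie above the 5 CHOW libraries for each gene except Spp1, where CHOW replicate 2 reaches 290 TPM.

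Trem2, the lipid-sensing receptor, stood at 68.5, 266, 52.9, 41.6 and 32.7 TPM in the 5 CHOW libraries at 20 weeks. In the 6 HFD libraries it ran from 493 through a median of 577 to 909 TPM. The groups did not overlap, and CHOW replicate 2 was the high library of its group. The log2 difference was 3.23 ± 0.46 (SE; adjusted p = 0.000169).

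Gpnmb, a glycoprotein of lysosomes and the cell surface, stood at 81.4, 575, 72.6, 49.4 and 79.5 TPM on CHOW at 20 weeks. On HFD it ran from 1305 through 1460 to 2394 TPM, again with no overlap and with CHOW replicate 2 apart from its group. Its log2 difference of 3.94 ± 0.52 (SE; adjusted p = 8.43e-05) ranked 8th from the highest among the 16808 genes, where Trem2 ranked 27th and Spp1 19th.

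Cd9 encodes a tetraspanin, a membrane protein that organises other surface proteins. On CHOW at 20 weeks it stood at 174, 247, 178, 156 and 150.0 TPM, and on HFD it ran from 338 through 421 to 546 TPM. The groups did not overlap and the spread within each was narrow. The log2 difference was 1.26 ± 0.19 (SE; adjusted p = 0.000245).

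Cd36, the fatty acid translocase and scavenger receptor, was among the most abundant of the 8. It stood at 1775, 1925, 1797, 1660 and 1703 TPM on CHOW at 20 weeks and ran from 2236 through 2842 to 3296 TPM on HFD. Each HFD library was above each CHOW library, yet the log2 difference of 0.68 ± 0.24 (SE) missed the threshold (adjusted p = 0.0624). The fit shares 1 spread over the 4 groups, and Cd36 varied most among the CHOW libraries at 8 weeks, with a coefficient of variation of 41.8%, against 5.73% on CHOW at 20 weeks. In a fit of the 20 week groups alone the adjusted p of Cd36 was 0.00238, which brings the count to 8 of 8, beside 15.1% of all genes.

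Spp1, the secreted glycoprotein osteopontin, was the most variable of the 8 on either diet at 20 weeks. The CHOW libraries at 20 weeks held 37.9, 290, 7.27, 9.41 and 5.68 TPM, and the HFD libraries ran from 146 through 255 to 419 TPM. The groups overlapped through CHOW replicate 2 alone. The log2 difference was 3.44 ± 0.77 (SE; adjusted p = 0.00606).

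Lgals3, a galectin of activated macrophages, was the most abundant of the 8 on HFD at 20 weeks. It stood at 1168, 2189, 853, 873 and 930 TPM on CHOW at 20 weeks and ran from 3173 through 3770 to 5697 TPM on HFD. There was no overlap, and CHOW replicate 2 was again the highest of its group. The log2 difference was 1.85 ± 0.32 (SE; adjusted p = 0.000931).

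Fabp5, a cytosolic fatty acid-binding protein, stood at 200, 380, 149, 108 and 112 TPM on CHOW and ran from 417 through 527 to 633 TPM on HFD. Its log2 difference was 1.60 ± 0.27 (SE; adjusted p = 0.000773). Plin2, the lipid droplet coat protein, stood at 712, 749, 618, 495 and 679 TPM on CHOW and ran from 937 through 1068 to 1570 TPM on HFD. Neither gene overlapped between the diets, and the log2 difference of Plin2 was the smallest of those called, at 0.83 ± 0.22 (SE; adjusted p = 0.0196). Without CHOW replicate 4 the adjusted p of Plin2 was 0.0643.

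CHOW replicate 2 held the highest value of its group for all 8 genes at 20 weeks. Without it, 7 of the 8 genes were called as before, beside 15.1% of all genes, and the log2 differences were 3.72 for Trem2, 4.55 for Gpnmb and 4.35 for Spp1. Its general macrophage genes summed to 14668 TPM, within the 10957 to 18590 TPM of the HFD libraries, against 6125 to 10228 TPM in the other CHOW libraries. The part of these markers in the result was not tested.

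After 8 weeks on diet, 0 of the 8 genes were called by limma, where 0.0238% of the genes tested were called in either direction. An unadjusted p under 0.05 was found for 4 of the 8 (Trem2, Gpnmb, Cd9 and Fabp5) and for 1630 of the 16808 genes tested. Every HFD library was above every CHOW library for 3 of the 8, Trem2, Gpnmb and Fabp5, against 0.339% of all genes tested. The median log2 difference of the 8 was 0.77, beside -0.08 for all genes, and it was 0.48 without CHOW replicate 1. The HFD libraries were widely spread.

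Trem2 stood at 37.5, 49.0, 70.3 and 52.1 TPM in the 4 CHOW libraries at 8 weeks and ran from 77.2 through 108 to 429 TPM in the 6 HFD libraries. Gpnmb stood at 31.9, 66.2, 64.4 and 89.0 TPM on CHOW and ran from 150 through 215 to 944 TPM on HFD. Both had the ranges of the diets apart, with the coefficient of variation among HFD libraries at 79.3% for Trem2 and 82.4% for Gpnmb. HFD replicates 2 and 4 were the high libraries: Trem2 reached 429 and 301 TPM there, and at most 116 TPM in the other 4. Replicate 2 was the highest of its group for 7 of the 8 genes, and replicate 4 for the remaining one, Fabp5.

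The log2 differences at 8 weeks were 1.50 ± 0.49 for Trem2 (SE; adjusted p = 0.31) and 2.36 ± 0.56 for Gpnmb (SE; adjusted p = 0.132). Fabp5 stood at 179, 178, 198 and 174 TPM on CHOW and ran from 254 through 371 to 552 TPM on HFD, with a log2 difference of 1.00 ± 0.29 (SE; adjusted p = 0.222). Cd9 stood at 121, 144, 199 and 149 TPM on CHOW and ran from 142 through 210 to 311 TPM on HFD, so its ranges overlapped. Its log2 difference was 0.51 ± 0.20 (SE).

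Lgals3 stood at 778, 940, 1406 and 1219 TPM on CHOW at 8 weeks and ran from 850 through 1452 to 3630 TPM on HFD. Spp1 stood at 7.67, 12.2, 129 and 23.2 TPM on CHOW, where replicate 3 was far above the rest, and ran from 23.4 through 45.2 to 79.1 TPM on HFD. Both overlapped between diets. Plin2 stood at 783, 708, 735 and 490 TPM on CHOW and ran from 437 through 618 to 1125 TPM on HFD, with a log2 difference of -0.01 ± 0.24 (SE). Cd36 stood at 2554, 2401, 816 and 1778 TPM on CHOW and ran from 1531 through 1974 to 3014 TPM on HFD. The low Cd36 value was that of CHOW replicate 3, which also had the lowest summed endothelial genes of all 34 libraries, 489 TPM against 648 TPM or more elsewhere, and the part of endothelial RNA in it was not tested.

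The count at 8 weeks changed with the fit. With weights for library quality 4 of the 8 genes were called (Trem2, Gpnmb, Cd9 and Fabp5), beside 1.24% of all genes. With the general macrophage score, the mean of log2(TPM + 1) over 15 genes, as a covariate 3 were called (Trem2, Gpnmb and Fabp5), beside 0.607% of all genes, and relative to that score 2 (Gpnmb and Fabp5), beside 0.0238%. With the score of 10 adipocyte genes as a covariate limma called 0 of the 8 and 0 of all genes, and the median of the 8 was -0.02, with Spp1 at -1.33, Lgals3 at -0.39 and Cd9 at -0.06. In that fit 0 of the 8 had an unadjusted p under 0.05, against 3136 of the 16808 genes tested. Removal of HFD 8 week replicate 3, rich in seminal vesicle RNA, together with HFD 20 week replicate 5, rich in sperm RNA, left 0 of the 8 and 0.0833% of all genes called. With hemoglobin, sperm and seminal vesicle genes removed before scaling, 0 of the 8 and 5 of the 17059 genes tested were called.

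Markers of other cells differed at 8 weeks as well. Summed adipocyte genes ran from 257 to 786 TPM on HFD and from 834 to 1806 TPM on CHOW, with 8 of 9 at an unadjusted p under 0.05 and a median log2 difference of -1.09. The number called lower was 1 of 9, with 3 when CHOW replicate 3 was left out and 0 when any 1 of CHOW replicates 1, 2 and 4 and HFD replicates 1, 4 and 6 was. The ranges of the summed TPM did not overlap. Those of the score used as the covariate did in part, at 3.87 to 5.44 on HFD and 5.04 to 6.13 on CHOW. With so little overlap diet and adipocyte RNA cannot be cleanly told apart at 8 weeks. Of 6 neutrophil genes and of 6 mast cell genes 0 were called by limma and 5 each had an unadjusted p under 0.05, with median log2 differences of -1.40 and -1.03. The part of these cells in the values of the 8 genes was not tested.

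After 34 weeks on diet, 0 of the 8 genes were called by limma, where 0.243% of the 13982 genes tested were called. An unadjusted p under 0.05 was found for 3 of the 8 (Trem2, Cd9 and Cd36) and for 1848 of the 13982 genes. Levels of most of the 8 genes were high in the CHOW libraries too. Cd9 alone had every HFD library above every CHOW library, against 0.737% of genes tested. The median log2 difference of the 8 was 0.61, beside 0.10 for all genes, and it was 0.38 without CHOW replicate 6.

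Cd9 ran from 56.2 through 219 to 371 TPM in the 7 CHOW libraries at 34 weeks and from 379 through 438 to 519 TPM in the 6 HFD libraries. Its log2 difference was 1.18 ± 0.33 (SE; adjusted p = 0.172), and it was called with quality weights (adjusted p = 0.0121, beside 2.1% of all genes called) and with the general macrophage score as a covariate (adjusted p = 0.0348, beside 0.458%). With the adipocyte score as a covariate its difference was 0.43 ± 0.23 (SE; adjusted p = 0.642). Trem2 ran from 85.4 through 533 to 743 TPM on CHOW and from 685 through 858 to 1129 TPM on HFD, overlapping through CHOW replicate 1. Its log2 difference was 1.06 ± 0.41 (SE; adjusted p = 0.306).

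Gpnmb ran from 128 through 938 to 1786 TPM on CHOW at 34 weeks and from 946 through 1253 to 1840 TPM on HFD. Lgals3 ran from 666 through 4015 to 5756 TPM on CHOW and from 3380 through 4488 to 7097 TPM on HFD. Cd36 ran from 1286 through 1818 to 2752 TPM on CHOW and from 2312 through 2585 to 3000 TPM on HFD, with a log2 difference of 0.55 ± 0.18 (SE; adjusted p = 0.246). The ranges of the diets overlapped for all 3.

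Spp1, Fabp5 and Plin2 had lower medians on HFD than on CHOW at 34 weeks. Spp1 ran from 10.7 through 386 to 1042 TPM on CHOW and from 102 through 203 to 1399 TPM on HFD. Its log2 difference was 0.24 ± 0.97 (SE; adjusted p = 0.926), opposite in sign to the difference of the medians, and ran from -0.48 to 0.60 with 1 library left out. Fabp5 ran from 446 through 1332 to 2424 TPM on CHOW and from 507 through 633 to 1287 TPM on HFD, with a log2 difference of -0.50 ± 0.41 (SE; adjusted p = 0.597). Plin2 ran from 709 through 1843 to 2304 TPM on CHOW and from 817 through 1086 to 2286 TPM on HFD, with a log2 difference of -0.29 ± 0.31 (SE). None of the 3 differences passed the test.

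CHOW replicate 6, with 56325 TPM of adipocyte genes, held the lowest CHOW value of 6 of the 8 genes at 34 weeks. Without the 3 adipocyte-rich CHOW libraries the log2 difference of Trem2 was 0.45, that of Gpnmb 0.13, that of Cd9 0.68 and that of Spp1 -0.96, and limma called 0 of the 8 and 0 of all genes. With the adipocyte score as a covariate 0 of the 8 and 0 of all genes were called too, and the median of the 8 was 0.05, with Spp1 at -1.74. Of 9 adipocyte genes 0 were called at 34 weeks and 8 had an unadjusted p under 0.05, with a median log2 difference of -2.92. All 6 mast cell genes had an unadjusted p under 0.05, with a median log2 difference of 2.69, and 3 were called higher, or 5 without CHOW replicate 4 and 0 when any 1 of CHOW replicates 1, 3, 5, 6 and 7 and HFD replicates 2, 3, 4, 5 and 6 was left out. Their summed TPM ran from 810 to 2797 on HFD and from 103 to 1071 on CHOW. Of 7 sperm genes tested 0 were called by limma and 7 had an unadjusted p under 0.05, with a median log2 difference of 3.31. The summed TPM of the 8 listed sperm genes ran from 25.3 to 5472 on HFD and from 0.39 to 60.3 on CHOW. Of 6 B cell genes 1 was called higher and 6 had an unadjusted p under 0.05, with a median log2 difference of 0.68. The part of mast cell, sperm and B cell RNA was not tested.

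**Figure D2:**
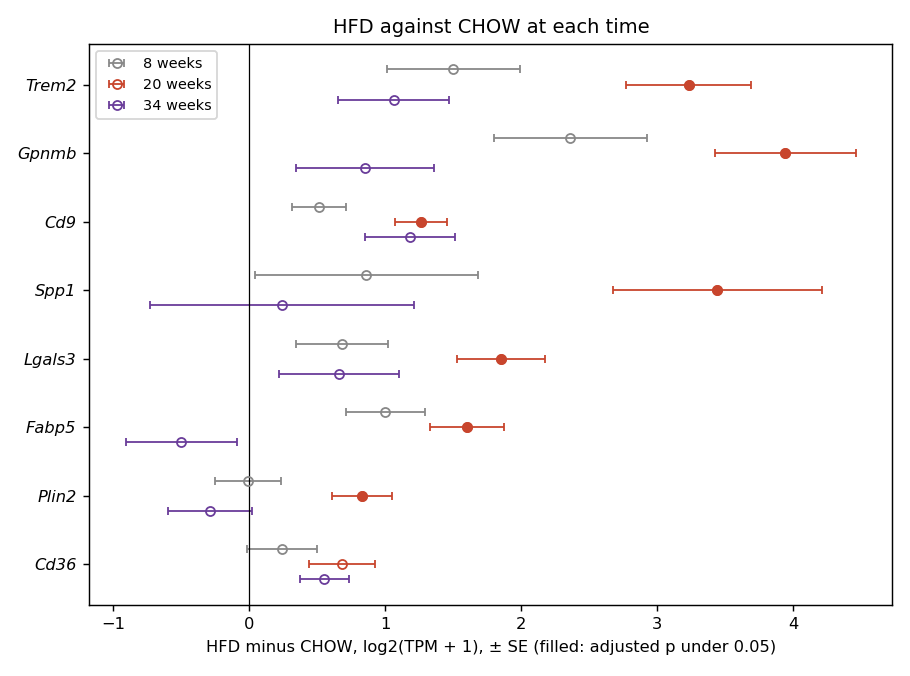
Log2 difference in TPM + 1 between HFD and CHOW for the 8 genes at 8, 20 and 34 weeks, with standard errors; filled points have an adjusted p under 0.05. The 20 week values of Gpnmb, Spp1 and Trem2 reach 3.94, 3.44 and 3.23, and the 34 week values of Fabp5 and Plin2 lie at -0.50 and -0.29.

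Time on diet was compared within the table of 8 and 20 weeks. On HFD, 6 of the 8 genes were higher at 20 than at 8 weeks, where 8.78% of the genes tested were called in either direction and 6.12% were called higher (1029 genes higher and 446 lower, or 1125 and 1630 after quantile normalization). The ranges were apart for 4 of the 8 (Trem2, Gpnmb, Cd9 and Spp1), against 2.89% of genes tested. Log2 differences were 2.42 ± 0.50 for Gpnmb, 2.49 ± 0.73 for Spp1, 2.11 ± 0.44 for Trem2, 1.26 ± 0.31 for Lgals3, 0.99 ± 0.18 for Cd9 and 0.78 ± 0.21 for Plin2 (SE; adjusted p from 0.00158 for Cd9 to 0.0395 for Spp1). Fabp5 and Cd36 were not called, with 0.49 ± 0.26 and 0.47 ± 0.23 (SE). The calls of Spp1 and Plin2 were lost when single HFD libraries were left out, in 8 and 5 of 12 such fits (HFD 20 week replicates 1, 2, 3 and 5 and HFD 8 week replicates 1, 3, 5 and 6 for Spp1, and HFD 20 week replicates 2 and 3 and HFD 8 week replicates 3, 5 and 6 for Plin2), with adjusted p up to 0.0861 and 0.0714.

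Markers of other cells changed over the same time on HFD. Of 9 adipocyte genes 7 were lower at 20 weeks (median log2 difference -1.57), and their summed TPM did not overlap, at 257 to 786 at 8 weeks and 127 to 249 at 20 weeks. All 6 mast cell genes were higher (3.25), all 5 erythroid genes were lower (-2.08) and 4 of 8 resident macrophage genes were lower (-0.93). With the adipocyte score as a covariate 0 of the 8 genes were called by limma, beside 0.589% of all genes, and Fabp5, Spp1 and Lgals3 turned to -0.47, -0.37 and -0.13. In that fit 0 of the 8 had an unadjusted p under 0.05, against 2275 of the 16808 genes tested. With the general macrophage score as a covariate 2 of the 8 were called (Trem2 and Cd9), beside 5.99% of all genes, and Fabp5 was at -0.11. Time on HFD and adipocyte RNA cannot be told apart, and the part of the other cells was not tested.

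On CHOW, 0 of the 8 genes were called between 20 and 8 weeks by limma, where 0.613% of the genes tested were called. Of the 8, 0 had an unadjusted p under 0.05, against 2104 of the 16808 genes tested. The log2 differences ran from -0.11 ± 0.30 for Fabp5 to 0.84 ± 0.58 for Gpnmb (SE). Without CHOW 20 week replicate 2, Gpnmb was at 0.23, Trem2 at -0.11 in place of 0.38 and Spp1 at -1.0 in place of -0.09, and none was called. The difference between the diet effects at 20 and at 8 weeks (the diet by time interaction) was also tested, and limma called 0 of the 8 genes there and 0.297% of the genes tested. Its estimates were above 0 for all 8 genes, from 0.43 ± 0.35 for Cd36 to 2.57 ± 1.13 for Spp1 (SE). An unadjusted p under 0.05 was found for 5 of the 8 (Trem2, Cd9, Spp1, Lgals3 and Plin2) and for 2318 of the 16808 genes tested. These comparisons share libraries with each other and with the diet comparisons. So the diet difference was called at 20 and not at 8 weeks, and a change of that difference between the times was not shown.

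Levels at 34 weeks were set beside the earlier ones without a test, as the tables were made separately. Median Trem2 on CHOW was 50.6, 52.9 and 533 TPM at 8, 20 and 34 weeks, and on HFD 108, 577 and 858 TPM. Median Gpnmb on CHOW was 65.3, 79.5 and 938 TPM, and on HFD 215, 1460 and 1253 TPM. The 8 genes together made up a median of 0.423%, 0.373% and 1.19% of all TPM on CHOW at 8, 20 and 34 weeks and 0.491%, 1.1% and 1.13% on HFD. When the 6 groups were ordered by their median for each gene, the ranges of neighbours in that order overlapped in 37 of 40 pairs. The 3 that did not were Fabp5 between CHOW and HFD at 8 weeks, Plin2 between CHOW at 8 and HFD at 20 weeks, and Spp1 between HFD at 8 and HFD at 34 weeks. Neighbours in an order set by a gene's own medians lie close by construction, and some of the pairs cross the separate tables. No share over all genes was computed, so the count shows nothing particular to the 8 genes.

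General macrophage genes rose in part at 20 weeks. Of 15 such genes 5 rose on HFD (Adgre1, Cd68, Lyz2, C1qb and C1qc), 0 fell and 10 were not called, with a median log2 difference of 0.52 beside 0.08 for all genes. The count was 2 when any 1 of CHOW replicates 3, 4 and 5 and HFD replicates 1, 2 and 3 was left out. Cd68, a lysosomal glycoprotein, rose by 1.43 ± 0.26 and Adgre1, which encodes F4/80, by 1.38 ± 0.28 on the log2 scale (SE). Relative to the score of these 15 genes, 6 of the 8 were called higher on HFD at 20 weeks, in a fit that called 1.8% of all genes higher and 37.4% in either direction, with a median of -0.56 over all genes: Gpnmb (3.31), Spp1 (2.80), Trem2 (2.59), Lgals3 (1.22), Fabp5 (0.97) and Cd9 (0.63). Plin2 and Cd36 had relative differences of 0.19 and 0.04, which were not called. With the score as a covariate 5 of the 8 were called, beside 5.06% of all genes, and Spp1, Plin2 and Cd36 were not (adjusted p = 0.0881, 0.216 and 0.245).

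**Figure D3:**
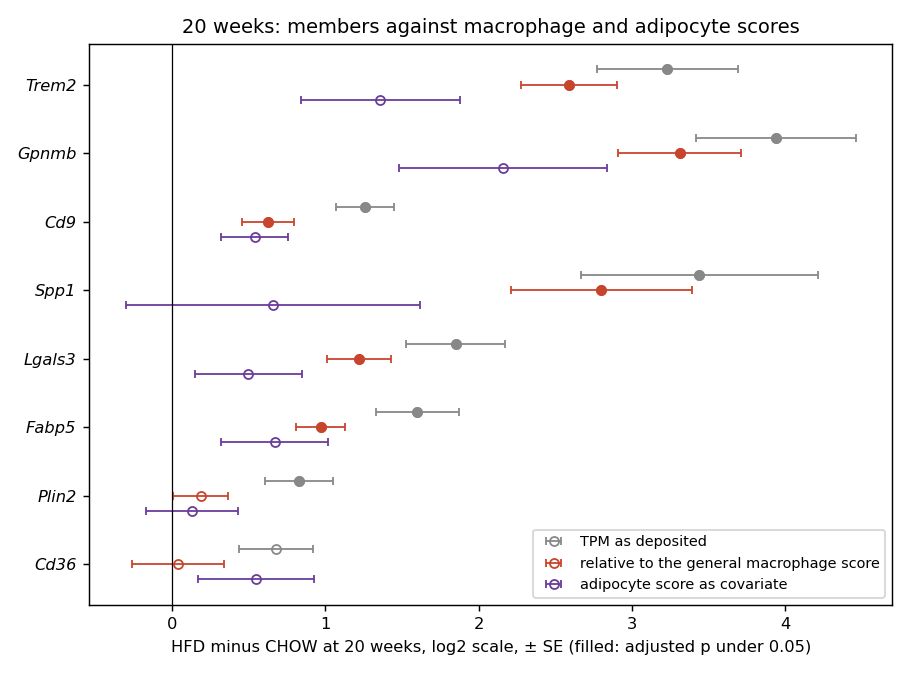
Log2 difference between HFD and CHOW at 20 weeks for the 8 genes, with standard errors, from TPM as deposited, relative to the score of 15 general macrophage genes, and with the score of 10 adipocyte genes as a covariate; filled points have an adjusted p under 0.05. Relative to the macrophage score Gpnmb stays at 3.31 and Cd36 at 0.04, and with the adipocyte covariate none of the 8 is filled.

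Adipocyte genes moved the other way. At 20 weeks 7 of 9 tested fell on HFD, 1 rose (Lep, the leptin gene, whose call was lost without any 1 of CHOW replicates 3, 4 and 5 and HFD replicates 1, 2 and 4) and 1 was not called, and their summed TPM ran from 127 to 249 on HFD against 383 to 918 on CHOW. Adding the score of these adipocyte genes to the fit left the estimates above 0 for all 8 genes at 20 weeks, from 0.13 for Plin2 to 2.16 for Gpnmb, and 0 of the 8 were called by limma, with 3 (Trem2, Gpnmb and Cd9) at an unadjusted p under 0.05. In that fit 0.143% of all genes were called, and 2529 of the 16808 tested had an unadjusted p under 0.05. The summed adipocyte genes did not overlap between the diets at 20 weeks, so that the diet and this score cannot be told apart there.

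Other genes of the lipid-associated macrophage programme were mostly higher as well. Of 20 listed, 17 rose on HFD at 20 weeks, 0 fell and 3 were not called (Lgals1, Fabp4 and Cstb), with a median log2 difference of 1.37 beside 0.08 for all genes. With the adipocyte score as a covariate 0 of the 20 were called higher. Atp6v0d2, a subunit of the lysosomal proton pump, rose from 19.6 ± 29.5 to 223 ± 54.7 TPM (mean ± SD, n = 5 and 6), a log2 difference of 4.25 ± 0.58 (SE; adjusted p = 0.000116). Mmp12, the macrophage elastase, rose by 4.07 ± 0.71, and Itgax, which encodes CD11c, by 2.94 ± 0.53 on the log2 scale (SE). The lysosomal hydrolases Ctsd and Lipa, a protease and an acid lipase, rose by 2.16 and 2.13 on that scale. At 8 weeks 0 of the 20 were called by limma, with 5 at an unadjusted p under 0.05, and at 34 weeks 0, with 7. Between 8 and 20 weeks on HFD 11 of the 20 rose and 0 fell. This list and the others were drawn up with earlier results of these libraries known, and their counts are not independent evidence of a direction.

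**Figure D4:**
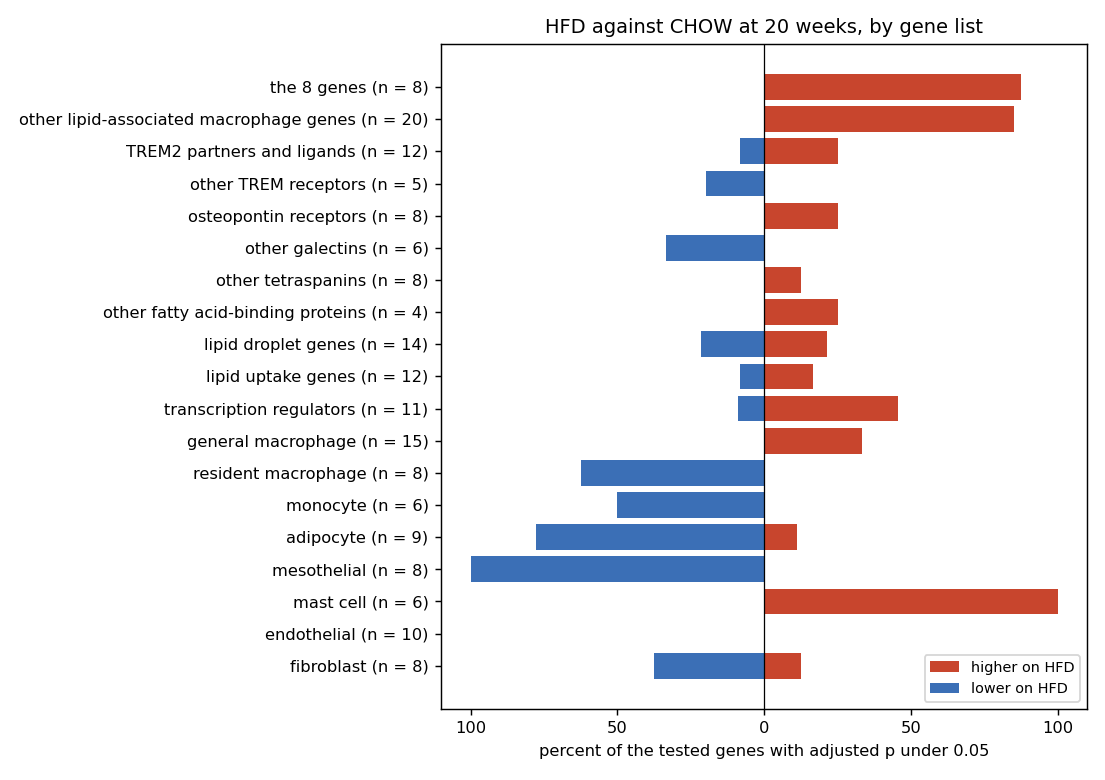
Percent of the tested genes in each list that were called higher (red, to the right) or lower (blue, to the left) on HFD at 20 weeks, with the number tested beside each name; some genes stand in more than 1 list. The 8 genes and the other 20 lipid-associated macrophage genes reach 7 and 17 called higher, and 5 of 8 resident macrophage genes are called lower.

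Partners of the TREM2 receptor rose in part. Of 12 listed ligands, adaptors, sheddases and signalling genes, 3 rose on HFD at 20 weeks and 1 fell, and 1 rose when any 1 of CHOW replicates 3, 4 and 5 and HFD replicates 1, 2 and 3 was left out. Tyrobp and Apoe also stand in the list of 20 genes above. Over all genes at 20 weeks 9.32% were called higher and 14.3% in either direction, shares to set beside this list and those below. Tyrobp, the adaptor of TREM2, rose from 755 ± 404 to 1749 ± 469 TPM (mean ± SD), a log2 difference of 1.31 ± 0.30 (SE; adjusted p = 0.00665). Syk, the kinase downstream of TYROBP, rose by 0.81 ± 0.25, and Apoe, a lipoprotein ligand, by 0.67 ± 0.22 on the log2 scale (SE; adjusted p = 0.0362 and 0.0485). Clu, which encodes the ligand clusterin and is also made by mesothelial and other stromal cells, fell by 1.79 on that scale, from 241 ± 109 to 61.8 ± 12.4 TPM. The sheddases Adam10 and Adam17 were among those not called. Of the 5 other TREM receptors 0 rose and 1 fell (Treml2).

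Receptors of osteopontin and genes of the same families as Lgals3 and Cd9 were mostly not called. Of 8 osteopontin receptor genes 2 rose at 20 weeks, Itgb5 by 1.09 ± 0.16 and Itgav by 0.94 ± 0.29 on the log2 scale (SE), and Cd44 was at 0.43 ± 0.29 (adjusted p = 0.335). Between 8 and 20 weeks on HFD 4 of the 8 rose (Cd44, Itgav, Itgb5 and Itga5). Of 6 other galectins 0 rose and 2 fell, Lgals9 and Lgals12, while Lgals1 was at 0.40 ± 0.19 (SE). The ratio of Lgals3 to Lgals1 TPM in a library ran from 0.707 to 1.99 on CHOW and from 2.53 to 3.34 on HFD at 20 weeks. Of 8 other tetraspanins 1 rose, the lysosomal Cd63, by 0.84 ± 0.18 (SE), which also stands in the list of 20 genes above.

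Relatives of Fabp5 and Plin2 went different ways. Of 4 other fatty acid-binding protein genes tested, 1 rose on HFD at 20 weeks and 0 fell. The 1 that rose was Fabp7, with a log2 difference of 1.55 (adjusted p = 0.0264 by limma). Fabp4, the fatty acid-binding protein of adipocytes, endothelial cells and macrophages, was at 5998 ± 1074 TPM on CHOW and 3916 ± 812 TPM on HFD at 20 weeks (mean ± SD), a log2 difference of -0.62 ± 0.29 that was not called (SE; adjusted p = 0.151). The ratio of Fabp5 to Fabp4 TPM ran from 0.0173 to 0.0886 on CHOW and from 0.101 to 0.214 on HFD, with no overlap. Of 14 other lipid droplet genes tested 3 rose (Hilpda, Soat1 and Plin3) and 3 fell (Plin1, Plin4 and Cidec). Hilpda, an inhibitor of triglyceride lipase, rose by 1.12 ± 0.26 and Soat1, which esterifies cholesterol, by 1.24 ± 0.33, while Plin1, the droplet coat of adipocytes, fell by 0.85 and Cidec by 1.72 on the log2 scale. The 3 that fell are known from adipocytes, and 2 of them (Plin1 and Cidec) are in the adipocyte list. The ratio of Plin2 to Plin1 TPM ran from 15.2 to 43.2 on CHOW and from 46.4 to 105 on HFD. Both ratios set a gene called higher over one that was called lower or not called, so they add no separate result.

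Among 12 other lipid uptake genes 2 rose at 20 weeks, the fatty acid transporter Slc27a1 by 1.56 ± 0.23 and Lrp1, a lipoprotein receptor, and 1 fell (Acsl4). The scavenger receptors Msr1 and Marco were at 0.75 ± 0.42 and -1.69 ± 0.75 (SE) and were not called. Among 11 tested transcription regulators 5 rose and 1 fell. Mitf, a factor of lysosomal genes, rose by 1.11 ± 0.19 (SE; adjusted p = 0.000676), Tfec by 1.07 ± 0.29, Bhlhe41 by 1.02 ± 0.26, Nr1h3, which encodes LXR alpha, by 1.01 ± 0.23 and Tfeb by 0.91 on the log2 scale. Pparg, a known regulator of Cd36 and Plin2, stood at 50.0 ± 7.89 and 49.3 ± 5.73 TPM on CHOW and HFD (mean ± SD), a difference of -0.01 ± 0.23 (SE).

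Markers of other cells changed beside these genes at 20 weeks. Of 8 resident macrophage genes 5 fell (Cd163, Lyve1, Timd4, F13a1 and Cbr2) and 0 rose, Cd163 from 216 ± 24.1 to 41.5 ± 14.2 TPM and Lyve1 from 89.5 ± 43.2 to 18.5 ± 4.02 TPM (mean ± SD). All 8 mesothelial genes fell, all 6 mast cell genes rose and 0 of 10 endothelial genes were called by limma, with 0 at an unadjusted p under 0.05, against 5121 of the 16808 genes tested. Summed mesothelial TPM was 48.7 to 184 on HFD and 193 to 779 on CHOW, and summed mast cell TPM was 573 to 2732 and 477 to 683. All 5 erythroid genes were called lower too, with summed TPM of 12622 to 30448 on HFD and 27334 to 130027 on CHOW, though 0 were called without CHOW replicate 5. With hemoglobin, sperm and seminal vesicle genes removed before scaling, 7 of the 8 lipid-associated genes and 16.9% of all genes were called. No mesothelial, mast cell or adipocyte marker was at 0 in all libraries of a group, and the part of these cells in the 8 genes was not tested.

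Levels of the 8 genes varied together across libraries. Over the 28 pairs of genes the median Spearman's rho was 0.832 in the 21 libraries of 8 and 20 weeks and 0.467 in the 13 libraries of 34 weeks. After the mean of each diet and time group was removed it was 0.681 and 0.659. The closest pair at 8 and 20 weeks was Trem2 with Gpnmb (0.887 with group means removed), and at 34 weeks Lgals3 with Gpnmb and with Plin2 (both 0.907). With group means removed Cd36 stood apart at 34 weeks, with rho between -0.187 (Fabp5) and 0.264 (Cd9). Before that removal its rho at 34 weeks ran from -0.132 (Fabp5) to 0.692 (Cd9). All genes of a library share its depth and its mix of cells, so these values are descriptions.

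**Figure D5:**
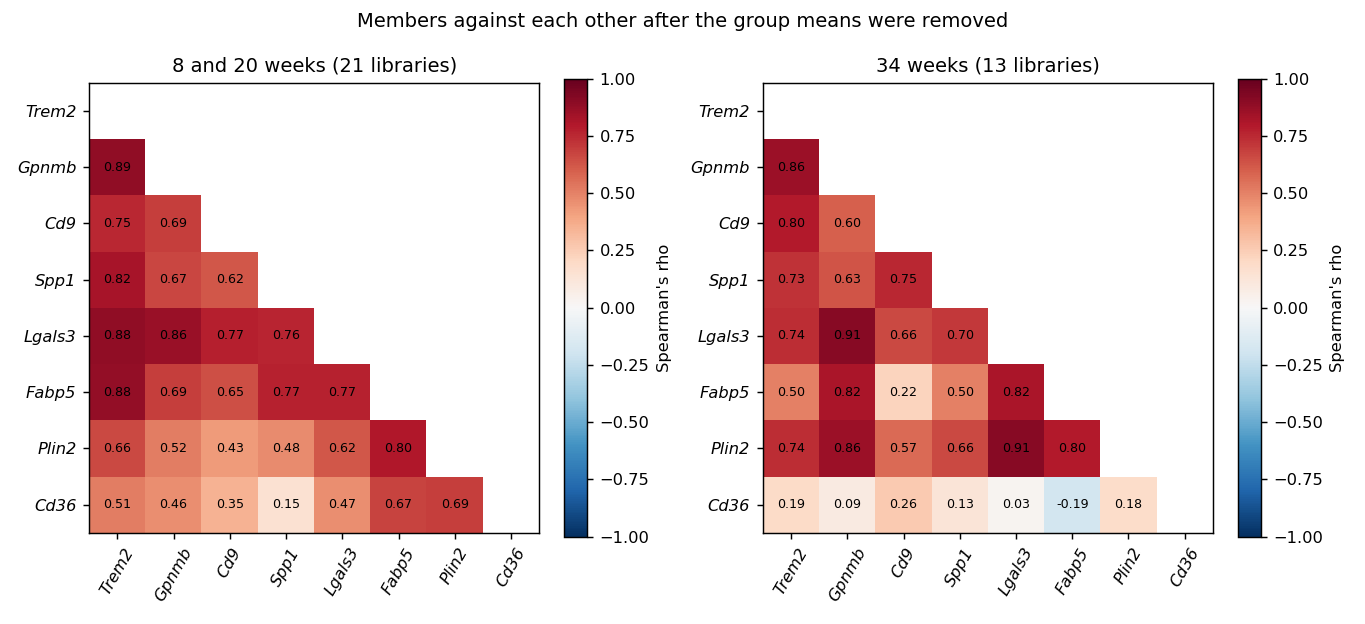
Spearman's rho between each pair of the 8 genes over 21 libraries (8 and 20 weeks, left) and 13 libraries (34 weeks, right), after the group means of log2(TPM + 1) were removed. At 34 weeks the bottom line, Cd36, holds values from -0.19 to 0.26, while Lgals3 with Gpnmb reaches 0.91.

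The genes most like each of the 8 were taken as those with the highest value of the lower rho of both tables, among 13944 genes tested in both. For Trem2 these were Cdk18 (0.968 over 21 and 0.912 over 13 libraries), Slc25a13 and Rnf128. For Gpnmb they were Atp6v0d2 (0.961 and 0.879), Arhgap25 and Syngr1, and for Cd9 Ctsk (0.938 and 0.956), Zranb3 and A230028O05Rik. Lgals3 was closest to Ctsz (0.939 and 0.934), Lrp12 and F7, and Plin2 to Atp6ap1 (0.906 and 0.956), Grn and Akr1a1. Spp1 was closest to Bola2 (0.852 and 0.879), Cdk20 and Ncf1, Fabp5 to Ly9 (0.884 and 0.819), Atp6v1g1 and Gm14461, and Cd36 to Lpl (0.886 and 0.841), Akr1b8 and Fzd7. Of these, 3, Atp6v0d2, Ctsz and Lpl, are in the list of 20 other lipid-associated macrophage genes.

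Ratios within a library showed how the balance among the 8 differed. Gpnmb over Trem2 TPM ran from 0.851 to 1.71 on CHOW and from 1.89 to 2.37 on HFD at 8 weeks, with no overlap, and from 1.19 to 2.43 and from 2.21 to 2.79 at 20 weeks. At 34 weeks it ran from 1.06 to 2.65 on CHOW and from 1.11 to 2.00 on HFD. Spp1 over Trem2 TPM was wide in each group, from 0.126 to 1.99 on CHOW and 0.12 to 1.24 on HFD at 34 weeks. Cd9 over Cd63 TPM ran from 0.2 to 0.308 on CHOW and from 0.319 to 0.371 on HFD at 8 weeks and from 0.0884 to 0.26 and from 0.278 to 0.363 at 34 weeks, apart at both times, and overlapped at 20 weeks. These ratios, and those over Lgals1, Fabp4 and Plin1 above, were examined after the values were seen and were not tested. No share over other pairs of genes stands beside them.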

How the data were processed

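RNA of 34 SVF libraries was sequenced by the authors from stranded poly(A) libraries; per the study's methods, reads were checked with FastQC and MultiQC, trimmed with Trimmomatic and quantified with Salmon against GENCODE M10 coding and long non-coding transcripts, with tool versions not given in the sources used here. As TPM, transcript shares corrected for length that sum to 1000000 in each library, the values were deposited by the authors in 1 table for 8 and 20 weeks and another for 34 weeks. TPM keeps no read depth, so no counting interval is given, and RNA of other tissues in a library lowers the TPM of all other genes in it. The authors tested counts, which were not used here.

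Groups came from the sample titles. Gene symbols came from GENCODE M21 by Ensembl ID without version (31791 of 32098 matched). Genes with at least 1 TPM in at least 4 libraries (8 and 20 weeks) or 6 libraries (34 weeks) were kept. Each table was fitted in R 4.3.3 with limma 3.58.1 on log2(TPM + 1), with 1 mean per group and a variance trend, and p-values were adjusted by Benjamini-Hochberg over all genes of the table. A fold change on this scale understates the change of low genes. A gene was called at an adjusted p under 0.05. All tests were two-sided. In data simulated for the comparison of diets at 20 weeks, with 16808 genes of which 200 were changed by 2 on the log2 scale, the fit recovered 96% of the changed genes. The changed genes were drawn from the more highly expressed ones, and the noise was independent between genes. The share holds for that size of change and does not cover smaller ones.

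The 8 genes, the gene lists and the tests were chosen with earlier results of these data known. Genes beside the 8 were named by a rule: in each list the 3 with the largest difference at 20 weeks among those with a mean of at least 5 TPM, and 8 fixed genes (Tyrobp, Apoe, Cd44, Itgav, Fabp4, Plin1, Pparg and Nr1h3). Other named list genes are those a count refers to and were picked after their values were seen. Scores are means of log2(TPM + 1) over a list. Alternatives were another pseudocount (0.1 TPM), filters (none, or 5 TPM), median-ratio scaling, quantile normalization, removal of hemoglobin, sperm and seminal vesicle genes, quality weights, macrophage and adipocyte scores, the replicate block, fits of 2 groups only, removal of the libraries that stood apart, and each library left out in turn.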

Additional observations from a re-analysis of the deposited data

Results flagged for a closer look

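Of 48 sets of values (8 genes in 6 groups), 6 held a library whose gap to the nearest other library passed Dixon's critical value at 95%, where chance gives about 1 in 20 for independent sets of normally distributed values. The values were TPM on their own scale and the 8 genes vary together, so that share is only a rough guide. Of the 6, 4 were the same library, CHOW 20 week replicate 2. It held 266 TPM of Trem2 (next highest 68.5), 575 TPM of Gpnmb (next 81.4), 290 TPM of Spp1 (next 37.9) and 2189 TPM of Lgals3 (next 1168). Its general macrophage genes summed to 14668 TPM, against 6125 to 10228 TPM in the other 4 CHOW libraries at that time, and the part of these cells in its values was not tested. The remaining 2 were of Spp1. CHOW 8 week replicate 3 held 129 TPM against a next highest of 23.2, and HFD 34 week replicate 1 held 1399 TPM against 460 TPM.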

How the results depend on the processing

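Of the 8 genes, the count called at 8 weeks moved from 0 to 4 with quality weights, 3 with the macrophage score as a covariate, 2 relative to that score and 1 with the replicate block. The fit with the replicate block called 17 of all 16808 genes at 8 weeks and 3597 of them at 20 weeks. The 20 week count moved from 7 to 0 with the adipocyte score as a covariate and was 5 to 8 under the other alternatives (8 with the replicate block), and 6 to 7 with 1 library left out. At 34 weeks it moved from 0 to 1 with quality weights and with the macrophage covariate. The count on HFD between 8 and 20 weeks moved from 6 to 0 with the adipocyte covariate and 2 with the macrophage covariate, was 4 to 6 elsewhere, and 4 to 6 with 1 library left out. The counts on CHOW over time and of the interaction were 0 under all alternatives run. The causes were not tested. Over all genes the number called at 20 weeks was 2405, and it ran from 24 (adipocyte covariate) to 6290 (relative to the macrophage score), which also moved the median of all genes from 0.08 to -0.56. With 1 library left out, 1 to 3 of 14 lipid droplet genes rose (1 without CHOW replicate 4 or 5) and 1 to 3 fell (1 with any 1 of CHOW replicates 1, 3, 4 and 5 and HFD replicates 1, 2 and 5 left out), and 1 to 2 of 8 osteopontin receptor genes rose (1 with any 1 of CHOW replicates 1, 4 and 5 and HFD replicates 2, 3 and 6 left out).

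With the adipocyte covariate the log2 difference turned to -0.06 for Cd9, -1.33 for Spp1 and -0.39 for Lgals3 at 8 weeks. It turned to -0.36 for Cd9 and -0.62 for Gpnmb on CHOW over time, and to -0.47 for Fabp5, -0.37 for Spp1 and -0.13 for Lgals3 on HFD over time. Against the macrophage score as a covariate Fabp5 turned to -0.11 on HFD over time and -0.18 in the interaction. Relative to that score Fabp5 turned to -0.10 and -0.16 in the same comparisons, Cd36 to -0.12 and -0.32, and Cd9 to -0.01 in the interaction. None of these 15 was called after the turn, and 28 further sign changes were of values within 1 SE of 0. Of 608 values under alternatives with all or a fixed set of libraries, 549 kept their direction, or lay within 1 SE of 0, and kept their call.

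The replicate numbers were not taken to pair the libraries, as not every same-numbered pair passed a correlation of 0.1: deviations of same-numbered libraries had a median correlation of 0.0717 over 28 pairs at 8 and 20 weeks (13 over 0.1) and 0.0886 over 6 pairs at 34 weeks (3 over 0.1), against -0.0262 over 136 (30 over 0.1) and -0.0175 over 36 (5 over 0.1) for different numbers. Same-numbered pairs passed 0.1 more often than others in both tables, so this rule does not exclude a link between them. TPM holds no depth, so the precision of low values such as Spp1 on CHOW is unknown.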
